A study of Sus scrofa with 4 samples.

Results

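The nuclear lamina genes and vimentin were followed in porcine cells taken from skin fibroblasts to induced neural stem cell-like cells (iNSLCs) and induced pluripotent stem cells (iPSCs). The set held 9 genes: the lamins LMNA, LMNB1 and LMNB2, the inner nuclear membrane proteins LBR, EMD and TMPO, the SUN-domain proteins SUN1 and SUN2, and the cytoplasmic filament gene VIM. They were chosen by name, and all 9 were found by gene identifier among the 25880 genes of the count tables. Bulk RNA sequencing of 4 libraries from 1 pig, N01F, gave 1 library of ear skin fibroblasts at passage 1, 1 of iNSLCs at passage 1 and 1 from each of 2 iPSC clones at passage 3.

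The animal was a post-neonatal pig, and the sources used here name no altered allele. The fibroblasts were the starting cells. The iNSLCs and both iPSC clones came from fibroblasts given the EP-B episomal vectors, which together encode OCT4, SOX2, L-MYC, KLF4 and LIN28 of human origin, mouse p53DD, and KLF2, NANOG, GLIS1 and KDM4D. The iNSLCs were induced in NSM, a medium developed for naive-state pluripotent cells, on mouse embryonic feeder cells, and the iPSCs were then derived in ESM with activin A, TGF-β1 and IWP2. Medium changes with cell state, and passage does too between the iPSCs and the other libraries, so these cannot be told apart from it, and the sources used here do not say whether feeder cells were removed before RNA extraction. The clones are the only replicates, and p-values measure the spread between these 2 clones of 1 animal.

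The lamina is a mesh of intermediate filament proteins under the inner nuclear membrane. LMNA encodes the A-type lamins A and C, which are abundant in stiff mesenchymal tissues, while LMNB1 and LMNB2 encode farnesylated B-type lamins found in most cells. LBR and the LEM-domain proteins emerin (EMD) and LAP2 (TMPO) tie chromatin to the membrane, and SUN1 and SUN2 form the inner end of the bridge that links the nucleus to the cytoskeleton. Vimentin, the product of VIM, builds the main cytoplasmic intermediate filaments of fibroblasts. A rise of A-type lamin with differentiation, and its low level in pluripotent cells, is well known.

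Library totals ran from 21640374 to 62421521 counts, with the fibroblast library the deepest, and 16218 to 17555 genes had a count. The labels were compared with their defining markers. The 14 mesenchymal and fibroblast markers summed to 148251 CPM (counts scaled to library size by edgeR's TMM factors) in fibroblasts, 55487 in iNSLCs, and 1065 and 998 in iPSC clones 1 and 2. POU5F1, which encodes OCT4, had 0 counts in fibroblasts, 40.5 CPM in iNSLCs and 285 CPM on average in iPSCs. The vectors encode OCT4, SOX2, NANOG and LIN28. For all 4 pluripotency markers, vector reads could therefore not be told apart in the iNSLC and iPSC libraries. By RT-PCR with porcine-specific primers, the paper reports endogenous OCT4, NANOG and SOX2 transcripts in N01F iPSC clones. It reports the vectors removed after more passages than the 3 of the clones sequenced here. By edgeR all 4 pluripotency markers were higher in iPSCs than in fibroblasts, and POU5F1, NANOG and SOX2, 3 of the 4, were higher than in iNSLCs. LIN28A just missed the call against iNSLCs by edgeR (adjusted p = 0.0506). It was called higher by DESeq2 (adjusted p = 0.0121) and with total-count scaling (edgeR adjusted p = 0.0498). None of the 4 was lower at an unadjusted p under 0.05 by edgeR or DESeq2 in either comparison. Of 4 neural stem markers, MSI1 and FABP7 were higher and PAX6 lower by edgeR in iPSCs than in fibroblasts. The PAX6 call was lost with total-count scaling (edgeR adjusted p = 0.0531). Against iNSLCs 3, SOX1 among them, were lower by edgeR, and none was higher at an unadjusted p under 0.05 by edgeR or DESeq2. DESeq2 lost the SOX1 call there (adjusted p = 0.0536) and called PAX6 lower (adjusted p = 0.0251). MSI1 stood at 0.345, 151 and 91.2 CPM in fibroblasts, iNSLCs and iPSCs, whereas PAX6 was highest in fibroblasts, at 21.5 against 14.6 and 4.52 CPM. SOX1 had 0 counts in fibroblasts and reached only 2.16 CPM in iNSLCs, so the neural label rested on some of its markers and not on others.

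LMNA and VIM were far lower in both reprogrammed states than in fibroblasts, and the B-type lamins, LBR and TMPO were higher. In iPSCs against fibroblasts, 8 of the 9 genes were called at an adjusted p of 0.05 (edgeR quasi-likelihood test, Benjamini-Hochberg over 15739 genes). LMNB1, LMNB2, LBR and TMPO rose and LMNA, EMD, SUN2 and VIM fell, while SUN1 was not called. The background over all genes was 29.6% higher and 27.5% lower, or 57.1% in either direction, and the median log2 ratio of all genes was 0.11. Between iPSCs and iNSLCs only VIM was called, against 28.1% of all genes called in either direction. In bulk RNA, fewer cells of a type and less RNA per cell cannot be told apart.

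**Figure D1:**
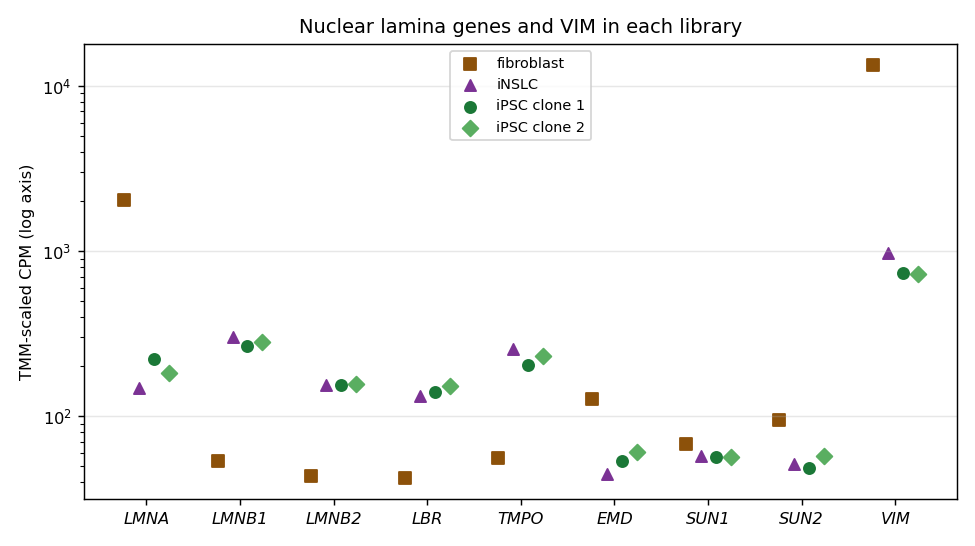
CPM of each of the 9 genes in the 4 libraries, on a log axis, with 1 point per library. LMNA falls from 2038 CPM in fibroblasts to between 148 and 222 CPM in the other libraries, VIM falls from 13441 CPM to between 725 and 969 CPM, and LMNB1 rises from 53.7 CPM to between 266 and 299.8 CPM.

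LMNA, the A-type lamin gene (ENSSSCG00000006496, chromosome 4, 93897687 to 93949802 on the minus strand of Sscrofa11.1), had 94396 counts in fibroblasts, 4231 in iNSLCs, and 5252 and 8312 in iPSC clones 1 and 2. Scaled for depth, these were 2038, 148, 222 and 182 CPM. The fibroblast library stood alone at the top, the iNSLC library was the lowest, and the clones lay between them. In iPSCs, the mean of 202 ± 28.3 CPM (SD, n = 2 clones) was 10.1-fold lower than in fibroblasts (log2 ratio −3.34 ± 0.157 SE, adjusted p = 0.000278 by edgeR). The iNSLC library was 13.8-fold lower than the fibroblast library, with a 95% interval of 13.4 to 14.2 that covers counting error only, since each state had 1 library and no test was run. LMNA ranked 52 by counts among all genes in fibroblasts and 1092 in iNSLCs, and 773 and 969 in the clones.

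The gap in LMNA between iPSCs and iNSLCs was 0.45 ± 0.165 on the log2 scale, higher in iPSCs, and was not called (edgeR adjusted p = 0.108, unadjusted p = 0.0454). Both clones were above the iNSLC library. The clones themselves differed, with clone 2 at 0.819 of clone 1 (95% counting interval 0.791 to 0.848), the lowest clone ratio of the 9 genes. The counts cover the whole gene, so lamin A and lamin C transcripts were not separated.

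LMNB1 (ENSSSCG00000014248, chromosome 2, 129807247 to 129862208, plus strand) moved the other way. It had 53.7 CPM in fibroblasts, 299.8 in iNSLCs, and 266 and 279.5 in iPSC clones 1 and 2, from 2486, 8592, 6307 and 12791 counts. Fibroblasts were the lowest library and the 3 reprogrammed libraries lay close together. The iPSC mean of 273 ± 9.37 CPM was 5.08-fold higher than in fibroblasts (log2 ratio 2.35 ± 0.135, edgeR adjusted p = 0.000400), and the iNSLC library was 5.59-fold higher (counting interval 5.34 to 5.84). Against iNSLCs, LMNB1 in iPSCs differed by −0.14 ± 0.119 on the log2 scale and was not called (edgeR adjusted p = 0.429).

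LMNB2 (ENSSSCG00000026784, chromosome 2, 76125920 to 76146733, plus strand), the other B-type lamin gene, had 43.5 CPM in fibroblasts, 154 in iNSLCs, and 153 and 157 in the clones. It rose 3.57-fold in iPSCs over fibroblasts (log2 ratio 1.84 ± 0.128, edgeR adjusted p = 0.000610) and stood 3.53-fold higher in the iNSLC library (counting interval 3.35 to 3.73). The iNSLC value lay between the 2 clones. The iPSC and iNSLC levels differed by 0.01 ± 0.117 on the log2 scale (edgeR adjusted p = 0.933). Of its 6155 exonic bases, 208 overlap a gene model on the opposite strand, and no source used here states whether counting was by strand.

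The opposite movements changed the make-up of the lamins. Compared per kilobase of gene model, since LMNA spans 6674 exonic bases and LMNB1 2964, LMNA stood 16.9-fold above LMNB1 in fibroblasts (counting interval 16.2 to 17.6). In iNSLCs the LMNA to LMNB1 ratio was 0.219 (0.211 to 0.227), and in iPSC clones 1 and 2 it was 0.370 (0.356 to 0.384) and 0.289 (0.281 to 0.297). LMNA was therefore the major lamin transcript in fibroblasts and LMNB1 in the other 3 libraries.

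B-type lamins made up 7.62% of lamin transcripts per kilobase in fibroblasts, 85.1% in iNSLCs, and 77.6% and 81.5% in the clones. LMNB1 alone went from 5.48% to 68.2% in iNSLCs, and LMNB2 from 2.14% to 16.9%. The summed lamin level fell from 331 RPKM (CPM per kilobase) in fibroblasts to 148 in iNSLCs, and to 148 and 147 in the clones. Unlike the shares, this sum depends on the scaling between libraries, and its fall is smaller with total-count scaling. The 3 reprogrammed libraries had nearly equal sums, and the clones kept more of that sum as LMNA than the iNSLC library did, at 22.4% and 18.5% against 14.9%. Within the B-type pair, LMNB1 stood 2.56-fold above LMNB2 in fibroblasts, 4.05-fold in iNSLCs, and 3.60-fold and 3.69-fold in the clones.

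**Figure D2:**
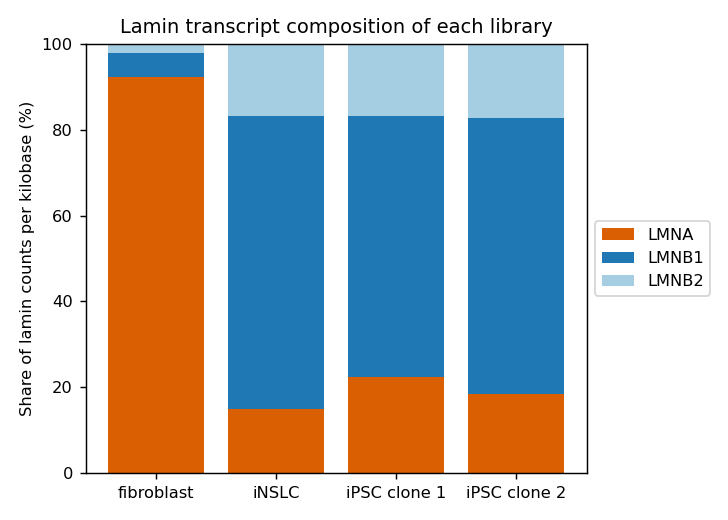
Share of LMNA, LMNB1 and LMNB2 in the summed lamin level per kilobase, in percent, stacked for each of the 4 libraries. LMNA takes 92.4% in the fibroblast library and 14.9% to 22.4% in the iNSLC and iPSC libraries, where LMNB1 takes 60.7% to 68.2%.

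LBR, the lamin B receptor, binds B-type lamins and heterochromatin and is also a sterol reductase (ENSSSCG00000032397, chromosome 10, 13389900 to 13432131, minus strand). Its level was 42.1 CPM in fibroblasts, 133 in iNSLCs, and 140.1 and 152 in the clones. Fibroblasts were again the lowest library. LBR was 3.48-fold higher in iPSCs than in fibroblasts (log2 ratio 1.80 ± 0.138, edgeR adjusted p = 0.000771) and 3.16-fold higher in the iNSLC library (counting interval 2.995 to 3.34). Between iPSCs and iNSLCs the difference of 0.14 ± 0.127 was not called (edgeR adjusted p = 0.453).

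TMPO, which encodes the LAP2 proteins that bind lamins and the chromatin factor BAF (ENSSSCG00000038487, chromosome 5, 85315290 to 85346639, minus strand), rose to a like extent. It had 55.6 CPM in fibroblasts, 256 in iNSLCs, and 205 and 232 in the clones. The iNSLC library held the highest level and fibroblasts the lowest. TMPO was 3.93-fold higher in iPSCs than in fibroblasts (log2 ratio 1.97 ± 0.150, edgeR adjusted p = 0.000757), and the iNSLC library was 4.61-fold above fibroblasts (counting interval 4.40 to 4.82). The iPSC to iNSLC difference of −0.23 ± 0.134 was not called (edgeR adjusted p = 0.257). LAP2 isoforms, of which one is nucleoplasmic and pairs with A-type lamins, share this gene model and were not separated.

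EMD, the gene of emerin (ENSSSCG00000037777, chromosome X, 124880996 to 124885389, minus strand), carries a LEM domain as TMPO does but fell. It had 127 CPM in fibroblasts, 44.7 in iNSLCs, and 53.3 and 60.8 in the clones. All 3 reprogrammed libraries lay below fibroblasts, with the iNSLC library the lowest. EMD was 2.22-fold lower in iPSCs (log2 ratio −1.15 ± 0.134, edgeR adjusted p = 0.00248) and 2.84-fold lower in the iNSLC library (counting interval 2.67 to 3.02). With total-count scaling the iPSC to fibroblast log2 ratio shrank to −0.58 and was still called (edgeR adjusted p = 0.0194). Against iNSLCs, EMD in iPSCs differed by 0.35 ± 0.142 and was not called (edgeR adjusted p = 0.131).

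SUN1 and SUN2 span the inner nuclear membrane and hold the nesprins of the outer membrane. SUN1 (ENSSSCG00000007544, chromosome 3, 486367 to 533317, plus strand) was the steadiest of the 9 genes, at 67.9 CPM in fibroblasts, 57.6 in iNSLCs, and 56.3 and 56.8 in the clones. Its highest library was only 1.21-fold above its lowest. The iPSC to fibroblast difference of −0.26 ± 0.115 was not called (edgeR adjusted p = 0.113), and its sign turned when libraries were scaled by total counts, to 0.31.

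SUN2 (ENSSSCG00000000094, chromosome 5, 9273131 to 9293258, plus strand) had 94.8 CPM in fibroblasts, 51.1 in iNSLCs, and 48.3 and 57.4 in the clones. It was called lower in iPSCs than in fibroblasts, by 1.79-fold (log2 ratio −0.84 ± 0.149, edgeR adjusted p = 0.00873), and this call was lost with total-count scaling (log2 ratio −0.27, edgeR adjusted p = 0.193). The iNSLC value lay between the clones, and the clones differed most in SUN2 among the genes higher in clone 2, at 1.19-fold (counting interval 1.11 to 1.27). Per kilobase, SUN2 exceeded SUN1 by 2.69-fold in fibroblasts, 1.71-fold in iNSLCs, and 1.65-fold and 1.94-fold in the clones. The SUN2 model shares 401 of its 4207 exonic bases with GTPBP1 on the opposite strand.

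VIM (ENSSSCG00000011033, chromosome 10, 43517283 to 43530623, plus strand) was the most abundant of the 9 genes in all 4 libraries per kilobase, and it moved the most between iPSCs and fibroblasts. It had 622497 counts in fibroblasts, 27778 in iNSLCs, and 17524 and 33163 in clones 1 and 2, or 13441, 969, 739.9 and 725 CPM. VIM took 0.997% of all fibroblast counts and ranked 6 among all genes there, against ranks 71 in iNSLCs and 127 and 126 in the clones. The 2 clones were within 1.02-fold of each other and both lay below the iNSLC library.

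In iPSCs VIM was 18.4-fold lower than in fibroblasts (log2 ratio −4.20 ± 0.103, edgeR adjusted p = 0.000157), and in the iNSLC library it was 13.9-fold lower (counting interval 13.7 to 14.0). VIM was the only one of the 9 genes called between iPSCs and iNSLCs. It was 1.32-fold lower in iPSCs (log2 ratio −0.40 ± 0.102, edgeR adjusted p = 0.0472), a call close to the threshold that was lost with no filter on low counts (adjusted p = 0.0565) and with DESeq2 (adjusted p = 0.0868). No gene of the 9 was called higher in iPSCs than in iNSLCs by edgeR or DESeq2, and 1, LMNA, was higher at an unadjusted p under 0.05 in each.

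**Figure D3:**
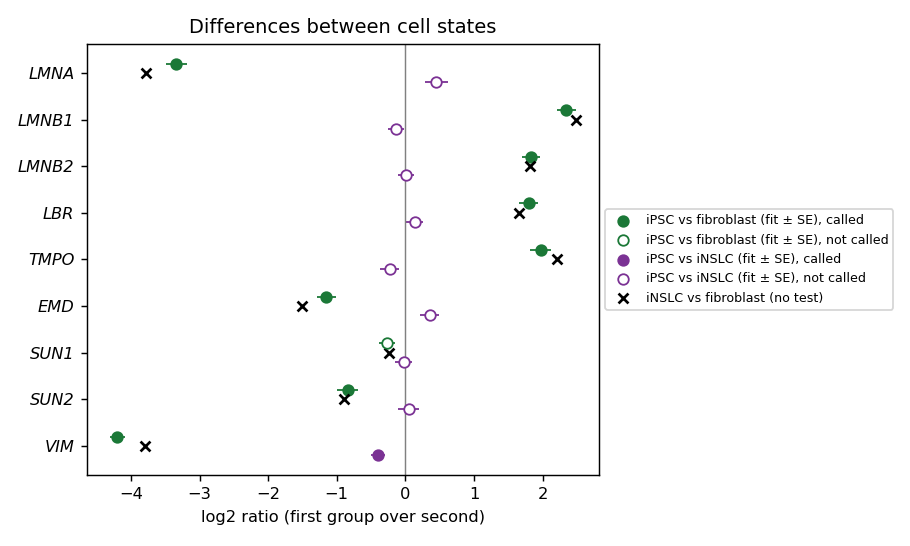
Log2 ratios of the 9 genes for iPSCs against fibroblasts and iPSCs against iNSLCs, with bars of ± 1 SE from the edgeR fit, filled where called and open where not, and crosses for the iNSLC library against the fibroblast library, which had no test. Against fibroblasts LMNA (−3.34) and VIM (−4.20) lie far below 0 and LMNB1 (2.35) far above it, SUN1 lies near 0 with a sign that turned under total-count scaling, and between iPSCs and iNSLCs the ratios lie between −0.40 and 0.45.

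The iNSLC and fibroblast libraries, both at passage 1, gave the same grouping of genes as a description. LMNB1, LMNB2, LBR and TMPO stood 2-fold or more higher in the iNSLC library, where 28.5% of all genes did, and LMNA, VIM and EMD stood 2-fold or more lower, where 19.3% did (47.9% in either direction). SUN2 was 1.85-fold lower and SUN1 1.18-fold lower in the iNSLC library under this scaling. With total-count scaling, the median log2 ratio of all genes moved up by 0.58 in this pair and by 0.57 between iPSCs and fibroblasts. SUN1 then turned to 0.35 and EMD came to −0.92, which left 2 genes, LMNA and VIM, 2-fold or more lower. The iPSC to fibroblast and iNSLC to fibroblast comparisons share the fibroblast library.

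Between the clones none of the 9 genes passed 2-fold, where 9.05% of all genes did in either direction, 3.65% higher and 5.4% lower in clone 2. Clone 2 over clone 1 ran from 0.819 for LMNA to 1.19 for SUN2. LMNB2 at 1.02 (counting interval 0.984 to 1.07) and SUN1 at 1.01 (0.945 to 1.08) did not differ between the clones beyond counting error. VIM, at 0.980 (0.962 to 0.998), differed by little more than that error.

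Per kilobase, the order of the 9 genes in fibroblasts was VIM at 2059 RPKM, LMNA at 305, EMD at 37.3, SUN2 at 22.5, LMNB1 at 18.1, LBR at 10.5, SUN1 at 8.39, TMPO at 7.14 and LMNB2 at 7.07. In iNSLCs LMNB1 came directly after VIM, at 101 against 148 RPKM, followed by LBR at 33.1 and TMPO at 32.9. In iPSCs VIM had 112 ± 1.64 RPKM and LMNB1 92.1 ± 3.16, and LMNA came to 30.2 ± 4.25, between LBR and TMPO at 36.4 ± 2.16 and 28.1 RPKM. LMNA and TMPO lay within the spread between the clones. SUN1 was last in iNSLCs and iPSCs, at 7.12 and 6.99 RPKM.

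The other genes of the nuclear envelope were read from fixed lists to place these 9 among their partners. Against fibroblasts, 3 of 13 further envelope genes passed the test as higher in iPSCs and 6 as lower, with a median log2 ratio of −0.38. Of all genes, 29.6% were called higher and 27.5% lower in that comparison, the background for every list below. TOR1AIP2, which encodes the torsin activator LULL1, went from 110 CPM in fibroblasts to 35.4 in iNSLCs and 18.8 ± 1.08 in iPSCs, a 5.87-fold fall (edgeR adjusted p = 0.000310). LEMD2, another LEM-domain gene, fell 2.48-fold, as EMD did. NEMP1 and TMEM201, both inner nuclear membrane proteins, rose 5.02-fold and 2.42-fold, and SYNE2 was the other gene called higher. With total-count scaling the split was 6 higher and 5 lower.

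Against iNSLCs, 2 of the 13 envelope genes, SYNE3 and TOR1AIP1, were called higher and 2, TOR1AIP2 and SYNE2, lower. Of all genes, 14.1% were called higher and 14.1% lower in that comparison, near the shares in this list. The same background holds for the lists below. The TOR1AIP1 call (edgeR adjusted p = 0.0455) was lost with DESeq2 (adjusted p = 0.0961). SYNE3 encodes nesprin-3, which binds plectin and so reaches the vimentin network. It had 127 CPM in fibroblasts, 16.4 in iNSLCs, and 61.3 and 58.3 in the clones. The iNSLC library was the lowest by far, and SYNE3 was 3.64-fold higher in iPSCs than there (edgeR adjusted p = 0.00297) while it was 2.12-fold lower than in fibroblasts (edgeR adjusted p = 0.00194). SYNE2, the gene of the giant actin-binding nesprin-2, had the opposite order, at 47.6 CPM in fibroblasts, 147 in iNSLCs and 87.1 ± 5.14 in iPSCs, and was 1.69-fold lower in iPSCs than in iNSLCs (edgeR adjusted p = 0.0164). In the iNSLC library against fibroblasts, 3 of the 13 stood 2-fold or more higher and 6 lower, where 28.5% and 19.3% of all genes did.

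Among 4 enzymes of lamin processing, 1 was called. ZMPSTE24, the protease that cuts prelamin A, went from 110 CPM in fibroblasts to 60.7 in iNSLCs and 63.9 ± 3.55 in iPSCs, 1.73-fold lower than in fibroblasts (edgeR adjusted p = 0.00554). That change was smaller than the one in its substrate gene LMNA. No enzyme was called higher by edgeR, where 1 was at an unadjusted p under 0.05, or by DESeq2. With total-count scaling ZMPSTE24 lost its call and RCE1, another protease of the pathway, was called higher (edgeR adjusted p = 0.188 and 0.00797). Against iNSLCs none of the 4 was called by either tool, and none had an unadjusted p under 0.05.

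Of 5 binding partners of LBR and related sterol reductases, 3 were called higher in iPSCs than in fibroblasts and 1 lower. CBX1 and CBX5, which encode the heterochromatin proteins HP1β and HP1α, rose 4.24-fold and 2.72-fold, and CBX3, the gene of HP1γ, rose 1.38-fold. The CBX3 call was lost with DESeq2 (adjusted p = 0.0803), and the DHCR7 call was lost with DESeq2 and with total-count scaling (adjusted p = 0.201 and 0.338). CBX1 had 57.8 CPM in fibroblasts, 255 in iNSLCs and 245 ± 35.6 in iPSCs, and so was lowest in fibroblasts, as LBR was. DHCR7, the last reductase of cholesterol synthesis, went from 52.0 CPM in fibroblasts to 24.3 in iNSLCs and 39.3 ± 0.238 in iPSCs, and was called 1.62-fold higher in iPSCs than in iNSLCs (edgeR adjusted p = 0.0251). It was the only one of the 5 called there, and none was lower at an unadjusted p under 0.05 by edgeR or DESeq2.

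Of 6 nuclear pore proteins, NUP210, NDC1, NUP153 and NUP50 were called higher in iPSCs than in fibroblasts, and the same 4 were higher than in iNSLCs. With total-count scaling all 6 were called higher than in fibroblasts, and with DESeq2 the NDC1 call against iNSLCs was lost (adjusted p = 0.0657). None was lower at an unadjusted p under 0.05 by edgeR or DESeq2 in either comparison. NUP210, a membrane-spanning pore glycoprotein, had 14 counts (0.302 CPM) in fibroblasts, 103 CPM in iNSLCs, and 268 and 257 CPM in the clones. It was 869-fold higher in iPSCs than in fibroblasts and 2.54-fold higher than in iNSLCs (edgeR adjusted p = 0.000157 and 0.00502). NDC1, another transmembrane pore protein, rose 2.51-fold over fibroblasts and 1.60-fold over iNSLCs.

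Vimentin gave way to keratins in the filament list. Per kilobase, VIM made up 98.6% of the 12 cytoplasmic filament genes measured in fibroblasts, 26.2% in iNSLCs and 5.47 ± 0.120% in iPSCs. KRT8 and KRT18, the simple epithelial keratin pair, took 0.0462% and 0.0231% in fibroblasts, 35.9% and 17.0% in iNSLCs, and 53.2 ± 1.25% and 36.5 ± 1.43% in iPSCs. Per kilobase, KRT8 therefore passed VIM in the iNSLC library, at 203 against 148 RPKM, and in iPSCs, at 1091 against 112 RPKM. Without length scaling VIM stayed above KRT8 in the iNSLC library, at 969 against 814 CPM. In iPSCs KRT8 was above VIM by that measure too, at 4368 against 732 CPM. Reads that keratin genes share with related copies may be split among them.

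Of the 11 filament genes other than VIM, 8 were called higher and 1, SYNM, lower in iPSCs than in fibroblasts. KRT18 was 1551-fold and KRT8 1130-fold higher in iPSCs than in fibroblasts, and both were also higher than in iNSLCs, by 7.80-fold and 5.36-fold. NES, the gene of nestin, which needs a partner such as vimentin to form filaments, had 30.6 CPM in fibroblasts, 384 in iNSLCs and 483 ± 31.1 in iPSCs. NES thus rose 15.8-fold in iPSCs while VIM fell, and per kilobase it went from 4.42 RPKM in fibroblasts, far under VIM, to 69.9 RPKM in iPSCs.

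Against iNSLCs, 2 filament genes were called higher and 5 lower in iPSCs. PRPH, NEFL and INA, filament genes of neurons, were 7.80-fold, 6.77-fold and 4.23-fold lower. NEFL had 14 counts in fibroblasts, 48.9 CPM in iNSLCs and 7.22 ± 0.237 CPM in iPSCs. VIM moved in the same direction by the smaller 1.32-fold. NEFM and SYNM were the others called lower. In the iNSLC library against fibroblasts, 8 of the 11 stood 2-fold or more higher, where 28.5% of all genes did.

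**Figure D4:**
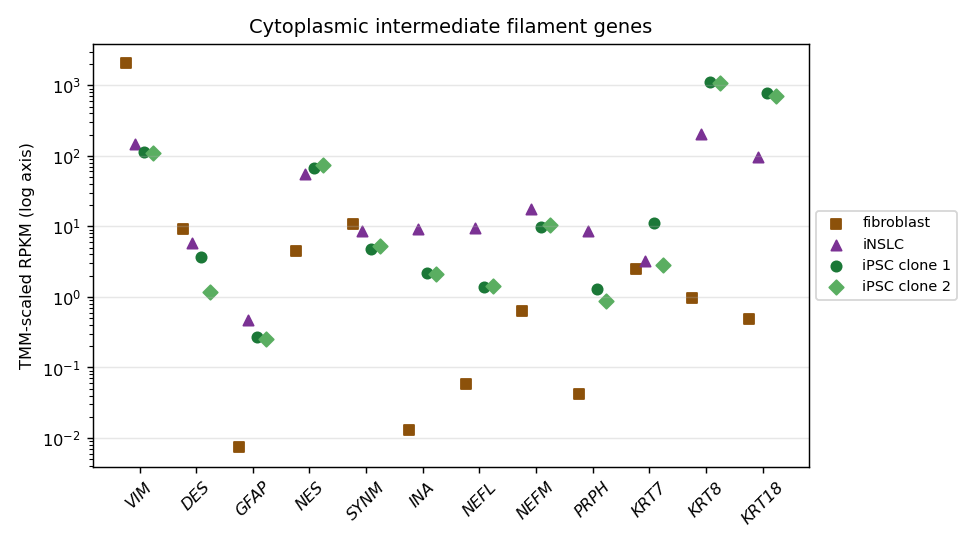
RPKM of VIM and the other cytoplasmic filament genes in the 4 libraries, on a log axis. VIM is first in the fibroblast library at 2059 RPKM, and KRT8 is first in the iNSLC library at 203 RPKM and in the clones at 1101 and 1081 RPKM. In the iNSLC library the order of KRT8 and VIM depends on the length scaling.

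The linkers that join filaments to other structures went mostly with VIM against fibroblasts. Of 4 found, PLEC, DST and MACF1 were called lower and EPPK1 higher in iPSCs. MACF1 lost its call with total-count scaling (edgeR adjusted p = 0.141). PLEC, the gene of plectin, had 3101 CPM in fibroblasts, 619 in iNSLCs, and 443 and 468 in the clones, a 6.81-fold fall to iPSCs (edgeR adjusted p = 0.000220). As with VIM, PLEC was also lower in iPSCs than in iNSLCs, by 1.36-fold (edgeR adjusted p = 0.0478), the only linker called there by edgeR, and not called by DESeq2 (adjusted p = 0.0638). EPPK1, the gene of epiplakin, a keratin-binding relative of plectin, rose 3.67-fold over fibroblasts. Against iNSLCs, 1 linker was higher at an unadjusted p under 0.05, and DESeq2 called it, EPPK1, higher (adjusted p = 0.0209).

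Between fibroblasts and iPSCs, most fibroblast markers fell as LMNA and VIM did, and proliferation markers rose as LMNB1 and TMPO did. Through iNSLCs the markers did not all keep step with these genes. Of the 14 mesenchymal markers, 13 fell in iPSCs against fibroblasts and 12 against iNSLCs, and none was higher at an unadjusted p under 0.05 by edgeR or DESeq2 in either. Their median log2 ratio against fibroblasts was −6.87, and none was at 0 counts in any library. In the iNSLC library LMNA stood at 7.24% and VIM at 7.21% of their fibroblast level. All 14 mesenchymal markers stood above both, with a median of 24.9%, from 12.6% for PDGFRB to 87.5% for FAP. COL3A1 and LUM lay near the top of that range, at 86.7% and 75.9%. PRRX1 and PDGFRA lay near its foot, at 13.8% and 17.6%.

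In iPSCs the order turned over. LMNA was at 9.90% and VIM at 5.45% of the fibroblast level, while 13 of the 14 markers lay below LMNA and 11 below VIM, with a median of 0.852%. COL3A1 was at 0.756% and COL6A3 at 0.107%. LMNA and VIM therefore differed little between iNSLCs and iPSCs, where the collagen genes differed by 45.5-fold (COL6A1) to 578-fold (COL6A3). DCN, LUM and FAP lay within that range. The markers PDGFRA, TWIST1, PRRX1, PDGFRB and THY1 differed far less, being 2.30-fold (PDGFRA) to 6.39-fold (THY1) lower in iPSCs. TWIST2 was 2.08-fold higher in iPSCs, and neither TWIST2 nor PRRX1 was called there by edgeR. The part of remaining mesenchymal transcripts in the levels of LMNA and VIM was not tested.

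**Figure D5:**
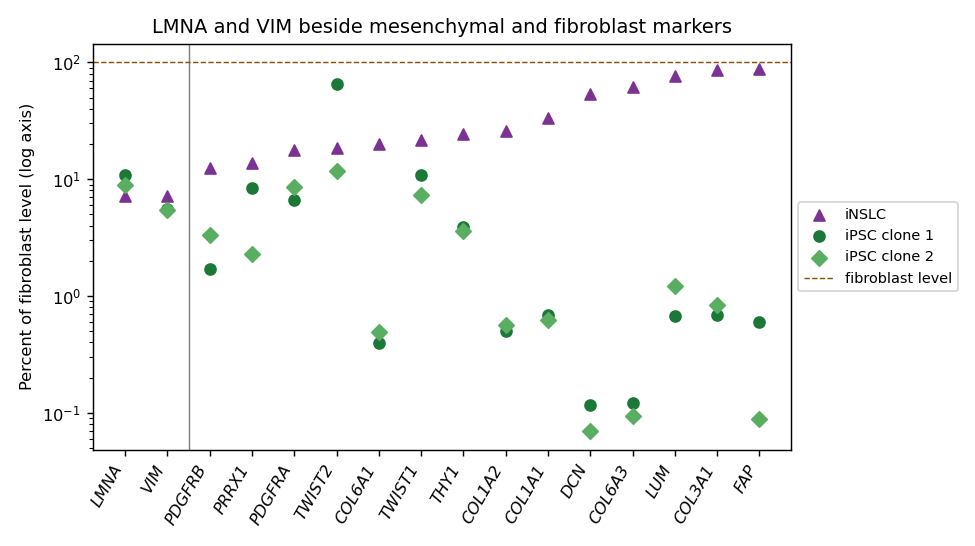
Level of LMNA, VIM and the 14 mesenchymal and fibroblast markers in the iNSLC library and both iPSC clones, as a percentage of the fibroblast level on a log axis. In the iNSLC library LMNA (7.24%) and VIM (7.21%) lie below all 14 markers, and in the clones they lie above most of them.

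The 11 proliferation genes summed to 499 CPM in fibroblasts, 1980 in iNSLCs, and 2382 and 2635 in the clones. All 11 were called higher in iPSCs than in fibroblasts, with a median log2 ratio of 2.26, close to that of LMNB1. MCM2, a subunit of the replicative helicase, was 7.83-fold, CDK1, the mitotic kinase, 7.22-fold, and TOP2A 6.63-fold higher. Against iNSLCs 5 of the 11 were called higher, CCNB1, CDK1, CCNB2, PLK1 and AURKB, by 1.66-fold to 2.08-fold. The AURKB call was lost with DESeq2 (adjusted p = 0.0764). The other 6, MCM2 and TOP2A among them, were not called. The median log2 ratio of the 11 against iNSLCs was 0.40, and 7 were higher at an unadjusted p under 0.05 by edgeR. LMNB1, LMNB2, LBR and TMPO were not called there either, and their log2 ratios were −0.14, 0.01, 0.14 and −0.23. None of the 11 was lower at an unadjusted p under 0.05 by edgeR or DESeq2 in either comparison. The part of proliferation in the rise of LMNB1 and TMPO was not tested.

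Markers of other cells that skin could hold were low. The 4 endothelial and blood markers summed to 22.5 CPM in fibroblasts, 27.4 in iNSLCs, and 8.57 and 18.5 in the clones. The 1 keratinocyte marker found, TP63, had 0.993, 8.72, 3.93 and 0.612 CPM in the same order and was not called in either comparison by edgeR or DESeq2. PECAM1 alone had 19.5 CPM in fibroblasts and 21.5 in iNSLCs. In iPSCs CDH5 was called higher and PECAM1 lower than in fibroblasts. PECAM1 was also called lower than in iNSLCs, by 5.95-fold (edgeR adjusted p = 0.0289). CDH5 was not called against iNSLCs by edgeR (adjusted p = 0.0512). It was called higher there by DESeq2 (adjusted p = 0.00909) and with total-count scaling (edgeR adjusted p = 0.0427).

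The genes nearest to LMNA, LMNB1 and VIM in profile were sought among 10082 genes, by the Euclidean distance of log2(CPM + 1) values centred on each gene's mean over the 4 libraries. For LMNA these were CCBE1, PTGER2 and AXL, at distances of 0.168, 0.215 and 0.238. CCBE1 and PTGER2 reached 10 CPM in fibroblasts only and had 1.08 and 0.628 CPM in iNSLCs, where adding 1 before the log shrinks a fall, so their nearness to LMNA depends on that constant. AXL, a receptor tyrosine kinase gene, had 442 CPM in fibroblasts, 33.6 in iNSLCs and 42.9 ± 0.610 in iPSCs. For LMNB1 they were RTKN2, MSI2 and GCA, at 0.0845, 0.115 and 0.115. MSI2, the gene of an RNA-binding protein of stem cells, had 14.4 CPM in fibroblasts, 81.2 in iNSLCs and 74.8 ± 3.20 in iPSCs. For VIM they were STEAP1, CCN5 and TNS1, at 0.233, 0.274 and 0.277. CCN5, with 13.9 CPM in fibroblasts and 0 and 0.0437 CPM in the clones, depends on the added constant in the same way.

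Within the set, LMNB1 was nearest to TMPO, at 0.313, and LMNA and VIM were nearest to each other, at 0.871. The larger distance between LMNA and VIM came with their opposite order of iNSLCs and iPSCs, LMNA being higher in iPSCs without passing the test and VIM lower. With 4 libraries, such distances describe the profile and rest mainly on the fibroblast library.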

How the data were processed

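Total RNA was the extracted material, and the authors describe their sequencing of the porcine cells as mRNA-seq. Per the submitters' processing notes and the deposited files, the authors trimmed reads with Trim Galore 0.4.0, aligned them to Sscrofa11.1 with STAR 2.5.3a and deposited raw counts per gene from featureCounts 1.5.2; strand setting and annotation release are not given in the sources used here. All 4 sample files held the same values as the series table.

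Here, counts were fitted with edgeR 4.0.16 (R 4.3.3): TMM scaling, filterByExpr, a quasi-likelihood test over 4 libraries in 3 groups, and Benjamini-Hochberg adjustment over 15739 genes at 0.05. The 2 iPSC clones gave the 1 residual degree of freedom (common biological coefficient of variation 0.198). The clones differed beyond sampling noise (mean chi-square per gene 30.2). On simulated data the test kept its error rate when spread followed the fitted trend and called too many genes when spread also varied from gene to gene. SE is the absolute log2 ratio divided by the square root of F. iNSLCs against fibroblasts, and clone against clone, had no replicates, so ratios of TMM-scaled CPM were given with exact 95% conditional binomial intervals and counted past 2-fold. RPKM used exonic length from the count table. DESeq2 1.42.0, other scalings and filters, and leaving out a clone were alternatives.

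All members, up to 4 genes per list and comparison by size, and 3 nearest genes at 10 CPM or more were named. PAX6, MSI1, SOX1, SYNE3 against fibroblasts, NES, genes filling out counts of calls and single mesenchymal markers were chosen after their values were seen. Members and the 12 lists were chosen with earlier results of these data known. Symbols came from identifiers (14857 genes) or, failing that, from a RefSeq gene overlapping 80% of the shorter span (1532). Of 90 listed genes, 81 were found. The other 9 were not analysed here.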

Additional observations from a re-analysis of the deposited data

How the results depend on the processing

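No paired analysis was possible because the labels number only the 2 iPSC clones, and the fibroblast and iNSLC groups have 1 unnumbered library each. Over both iPSC comparisons, 85 of 90 values of the 9 genes kept their direction and their side of the threshold. With total-count scaling SUN1 turned to 0.31 against fibroblasts and to 0.35 between iNSLCs and fibroblasts, and SUN2 against fibroblasts lost its call (−0.27, edgeR adjusted p = 0.193). The count of genes called lower between iPSCs and iNSLCs went from 1 to 0 with no filter and to 0 with DESeq2, through VIM (adjusted p = 0.0565 and 0.0868; edgeR alone gave 0.0472 as reported). LMNB2 between iPSCs and iNSLCs was −0.0201 with a stricter filter.

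Without length scaling, the LMNA to LMNB1 ratio was 37.97 in fibroblasts, 0.492 in iNSLCs and 0.741 in iPSCs, and the B-type share was 4.55%, 75.4% and 68.0%. Leaving out either clone leaves no residual degrees of freedom, so those values have no test and counts of calls cannot be given. Of 36 such values 34 kept their direction. LMNB2 and SUN2 against iNSLCs did not, ranging from −0.00299 to 0.0320 and from −0.0807 to 0.167, and the iPSC LMNA to LMNB1 ratio ranged from 0.289 to 0.370 and the B-type share from 77.6% to 81.5%. With 1 fibroblast and 1 iNSLC library, no alternative measures the spread within those states.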
